A study of Drosophila melanogaster with 21 samples.

Results

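Of the receptor genes through which fly neurons sense GABA and glutamate, 10 were followed in RNA-sequencing libraries of whole fly heads. These were *Rdl*, *Grd*, *Lcch3*, *GluClalpha*, *GABA-B-R1*, *GABA-B-R2*, *mGluR*, *Nmdar1*, *Nmdar2* and *GluRIA*. They were chosen by FlyBase gene identifier from the 17559 genes listed in the count data, and each of the 10 was found. All 10 passed the filter on low counts, as did 10558 of all genes listed. GABA is the main fast inhibitory transmitter of the insect brain, and it opens chloride channels built from subunits of the *Rdl* type or acts more slowly through paired G protein-coupled receptors. Glutamate excites through cation channels of the NMDA and AMPA types, and in insects it also inhibits through a glutamate-gated chloride channel, which vertebrates lack. Most synapses of the fly brain itself are excited by acetylcholine, so glutamate acts there as one signal among several.

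Heads of F1 female *Drosophila melanogaster* were sequenced in 7 groups with 3 biological replicates each, to ask how knockdown of fly homologs of genes in a human deletion region, alone or in pairs, alters the head transcriptome. Flies were reared at 25 °C with the *Elav-GAL4* driver, which is active in neurons, and were frozen in groups of 40 to 50. Individual knockdowns were *dlg1*, which encodes a synaptic scaffold protein (line 41136, GD background), *Fsn*, which encodes an F-box protein of synapses (line 26577, GD background), and *Cbp20*, whose product binds the cap of nascent RNA in the nucleus (line 107112, KK background). The pairwise knockdowns *Cbp20/dlg1* and *Cbp20/Fsn* combined the *Cbp20* line with the *dlg1* or the *Fsn* line and are listed under the KK background, and Control GD and Control KK (line 60100) carried the same driver over the parental strains of the 2 RNAi collections. Each gene was targeted by 1 RNAi line. RNA came from the whole head, which holds glia, muscle and fat body tissue that the driver does not target. In such bulk samples, fewer cells of a type and less RNA per cell cannot be told apart. The age of the flies is not given in the sources used here.

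Total gene counts per library ranged from 17712938 to 28759171, with a median of 22289840. *Cbp20* expression was reduced in each group that targeted it (log2 fold change between -1.45 and -1.23), and *Fsn* expression was reduced in both groups that targeted it (-0.56 and -0.53). *dlg1* levels lay below those of the control without overlap in *dlg1* and in *Cbp20/dlg1* flies, but the difference passed the test in the pair (-0.35, and -0.27 without the 2 libraries described next) and not in *dlg1* flies (-0.19). *dlg1* was also lower in *Fsn* flies, where it is not targeted (-0.31, edgeR FDR = 0.0209, and -0.18 without those libraries, edgeR FDR = 0.0124). Libraries differed in how well long transcripts were represented. The median log2 deviation of 1310 genes with over 5000 exon bases, minus that of 2159 genes with under 1500, was -0.85 in replicate 1 of *Fsn* and -0.41 in replicate 3 of *Cbp20/dlg1*, and it lay between -0.27 and 0.31 in the other 19 libraries. These 2 libraries were the lowest, so results on the receptor genes, markers and related genes that rest on them are also given without them. The groups still differ in this trend without them. The other *Fsn* libraries had -0.07 and -0.27 against 0.14 to 0.19 in Control GD. *Cbp20* libraries had 0.22 to 0.31 against -0.02 to 0.06 in Control KK.

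Within the head, the receptor genes differed widely in level per length. All per-length levels are in RPKM, counts scaled to exon length and library size, and are medians over the 21 libraries. Among the chloride channels, *GluClalpha* (FBgn0024963, 3R:19730715-19775231), the glutamate-gated chloride channel and target of ivermectin, was highest at 65.1 RPKM. *Rdl* (FBgn0004244, 3L:9145838-9182149), the principal GABA-gated chloride channel subunit and target of the insecticide dieldrin, had 44.6 RPKM. *Lcch3* (FBgn0010240, X:15925105-15928529), a further GABA receptor subunit, had 39.2 RPKM.

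*Grd* (FBgn0001134, 3L:17823333-17839767), whose product can form a GABA-gated cation channel with that of *Lcch3* when both are expressed in frog oocytes, was the lowest of the set at 3.05 RPKM. The receptor pair that couples GABA to G proteins was unequal in level. *GABA-B-R2* (FBgn0027575, 3R:21770333-21775840), which carries the G protein coupling, had 52.1 RPKM, and *GABA-B-R1* (FBgn0260446, 2L:15016331-15034704), which binds GABA, had 18.5 RPKM.

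The glutamate receptors that act through G proteins or cation channels ranged from the middle of the set to the level next to the lowest. *mGluR* (FBgn0019985, 4:936819-949441), the metabotropic glutamate receptor, had 23.3 RPKM. *Nmdar1* (FBgn0010399, 3R:5508842-5523328), the subunit every NMDA receptor needs, had 22.1 RPKM. *Nmdar2* (FBgn0053513, X:1483625-1507809), its partner subunit, had 14.6 RPKM, and *GluRIA* (FBgn0004619, 3L:6624032-6635059), an AMPA-type subunit, had 13.8 RPKM. All 10 are protein-coding, and the positions are those of the BDGP6.54 annotation, a later release than the one the reads were counted on. This order was the same in both controls.

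Exons of 2 members overlap genes on the opposite strand. For *Grd*, 27.5% of exon bases lie over *CG5577*, which had a median of 531 counts per library. For *Lcch3*, 24% lie over *Ranbp16* and 7.36% over *asRNA:CR45000*. The strand setting of the counting is not stated in the sources used here. Among genes that lie wholly inside exons of an abundant gene, 20 of 29 on the opposite strand had counts and 2 of 39 on the same strand did, as counting by strand would give, since without it reads under both genes are ambiguous. The values of the overlapping genes are given beside those of *Grd* and *Lcch3*.

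**Figure D1:**
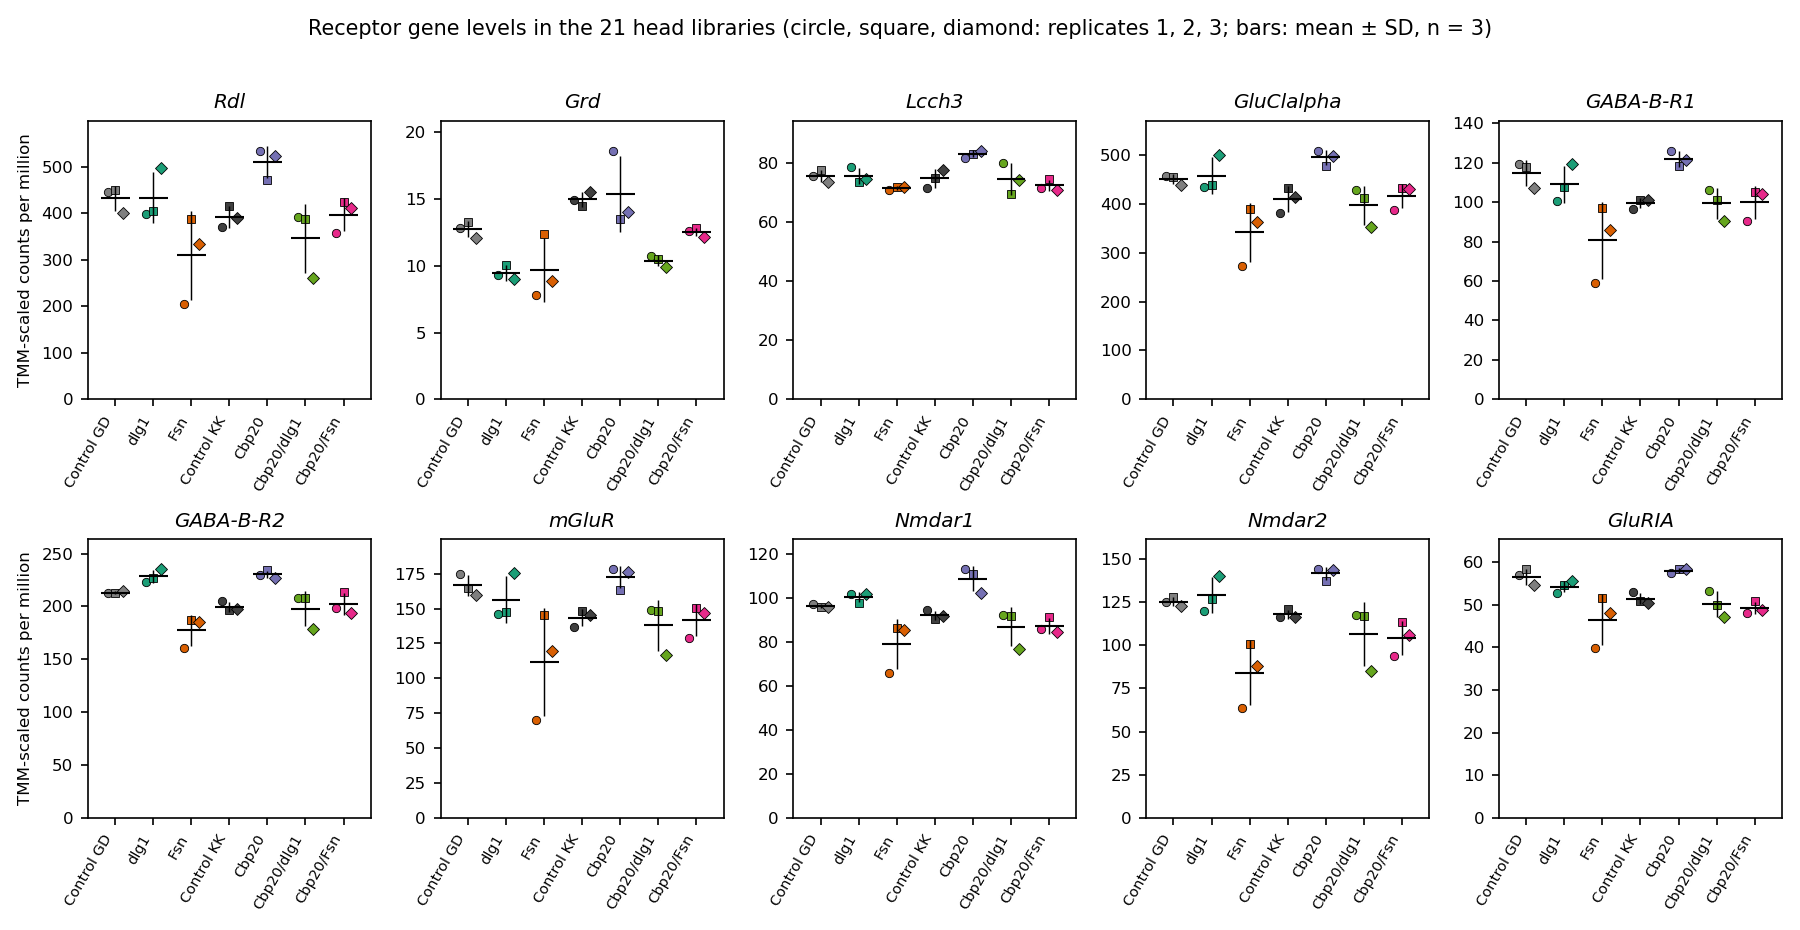
Levels of the 10 receptor genes in TMM-scaled CPM (vertical axis, from 0) in the 7 groups (horizontal axis); symbols are the 3 replicates and bars the mean ± SD. *Fsn* replicate 1 (circle) is the lowest library for 9 of the 10 genes, and *Cbp20* has the highest group mean for all 10.

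Across the 7 groups the receptor genes were arranged alike. The group mean was lowest in *Fsn* for 9 members and in *dlg1* for *Grd*, and it was highest in *Cbp20* for all 10, as the plot of levels by group shows. The highest group mean was between 1.16 times (*Lcch3*) and 1.69 times (*Nmdar2*) the lowest. Neighbouring groups in this order mostly overlapped in their libraries. For *Rdl*, *GABA-B-R1*, *GluRIA* and *mGluR* all 6 steps from 1 group to the next overlapped, and for *Nmdar1* 3 of 6 did. By single library the spread was larger, from 1.21-fold for *Lcch3* to 2.62-fold for *Rdl* between the lowest and the highest of the 21 libraries, and *Fsn* replicate 1 held the lowest value of every member but *Lcch3*.

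Knockdown of *Fsn* was compared with Control GD. The transcripts of 9 of the 10 receptors fell, to between 66.9% (*Nmdar2* and *mGluR*) and 83.3% (*GABA-B-R2*) of the control, and *Lcch3* did not pass the test. Fold changes are log2 values with their standard error (SE), and a gene was called at an edgeR FDR under 0.05, which is the Benjamini-Hochberg adjusted p of the quasi-likelihood test over all 10558 genes tested. Of all genes tested, 17.9% were called lower in this comparison. The median log2 fold change was -0.40 over the members and 0.03 over all genes. The log2 fold change was between -1 and 1 for every member in this and each other comparison. The 3 *Fsn* libraries lay below the 3 control libraries for 9 members (all but *Grd*), as they did for 22.4% of all genes.

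Among the chloride channels, *Rdl* levels were 446, 449 and 401 CPM (TMM-scaled counts at a common library size) in Control GD and 204, 388 and 335 CPM in *Fsn*. Every *Fsn* library was below every control library, and replicate 1 was far below the other 2. The log2 fold change of *Rdl* was -0.48 ± 0.17 (SE, edgeR FDR = 0.0359). *GluClalpha* levels were 458, 454 and 439 CPM in Control GD and 274, 389 and 363 CPM in *Fsn*, again without overlap (-0.40 ± 0.10, edgeR FDR = 0.00586). *Grd*, at a much lower level, had 12.8, 13.3 and 12.1 CPM in Control GD and 7.82, 12.4 and 8.85 CPM in *Fsn* (-0.40 ± 0.13, edgeR FDR = 0.0228). Replicate 2 of *Fsn* lay within the range of the controls for *Grd*. *CG5577*, which shares exon bases with *Grd* on the other strand, rose in the same flies (0.65, edgeR FDR = 6.96e-06). *Lcch3* had 75.5, 77.8 and 73.6 CPM in Control GD and 70.8, 72.1 and 72.0 CPM in *Fsn*. The groups did not overlap here either, but this small difference did not pass the test (-0.08 ± 0.05, edgeR FDR = 0.239). *Ranbp16*, which shares exon bases with *Lcch3*, fell (-0.25, edgeR FDR = 0.0233).

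Both subunits of the GABA-B receptor fell. *GABA-B-R1* levels were 119.5, 118 and 107 CPM in Control GD and 58.9, 96.8 and 85.9 CPM in *Fsn* (-0.51 ± 0.12, edgeR FDR = 0.00378). *GABA-B-R2* levels were 213, 212 and 214 CPM in Control GD and 161, 187 and 185 CPM in *Fsn* (-0.26 ± 0.06, edgeR FDR = 0.00430). For neither gene did the groups overlap. The ratio of *GABA-B-R2* to *GABA-B-R1* per length was 2.63 ± 0.17 in Control GD and 3.21 ± 0.58 in *Fsn* (SD, n = 3), where replicate 1 alone reached 3.86 and replicate 2 lay within the control range.

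The receptors for glutamate fell together. *mGluR* levels were 175, 165 and 159.9 CPM in Control GD and 70.0, 146 and 119.6 CPM in *Fsn* (-0.58 ± 0.17, edgeR FDR = 0.0117). *Nmdar2* levels were 125, 128 and 123 CPM in Control GD and 63.5, 101 and 87.8 CPM in *Fsn* (-0.58 ± 0.13, edgeR FDR = 0.00267). These were the 2 members with the largest falls, and in both the *Fsn* libraries were spread more widely than the controls. *Nmdar1* levels were 97.2, 96.0 and 95.7 CPM in Control GD and 65.8, 86.2 and 85.1 CPM in *Fsn* (-0.29 ± 0.08, edgeR FDR = 0.0127). *GluRIA* levels were 56.9, 58.3 and 54.6 CPM in Control GD and 39.9, 51.5 and 48.0 CPM in *Fsn* (-0.29 ± 0.07, edgeR FDR = 0.00436). The fall of *Nmdar2* was the larger in size, and the ratio of *Nmdar1* to *Nmdar2* per length was 1.5, 1.44 and 1.5 in Control GD but 2.0, 1.65 and 1.87 in *Fsn*, without overlap. *Nmdar2* has 8036 exon bases and *Nmdar1* has 4170. Outside *Fsn*, the ratio was 1.74 in replicate 3 of *Cbp20/dlg1*, which is low in long genes, and 1.76 in replicate 1 of *Cbp20/Fsn*. In all other libraries outside *Fsn* it lay between 1.37 and 1.64. The difference between the ratios, and the part of exon length in it, was not tested.

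Without *Fsn* replicate 1, 6 members were lower at an edgeR FDR under 0.05 (2202 of all genes called in either direction, against 4035 with it), and the median over the members was -0.27. The 6 were *GABA-B-R1* (-0.34), *GABA-B-R2* (-0.21), *GluClalpha* (-0.27), *mGluR* (-0.34), *Nmdar2* (-0.43) and *GluRIA* (-0.20). *Rdl* (-0.27, edgeR FDR = 0.186), *Grd* (-0.27, edgeR FDR = 0.150) and *Nmdar1* (-0.18, edgeR FDR = 0.0663) no longer passed. When both libraries low in long genes were left out, 7 members were lower, *Nmdar1* among them (-0.18, edgeR FDR = 0.00766). When the trend with exon length was removed from every library, 7 members were lower with a median of -0.18. *Lcch3* then passed (-0.19), and *Rdl* (-0.13), *Grd* (-0.26) and *GluClalpha* (-0.10) did not. With only *Fsn* and Control GD in the model, 1 member and 1568 of all genes were called, and with Control KK as the control 2 members were.

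Markers of other tissue moved with these falls. Of 6 neuron markers, 5 fell in *Fsn* flies, among them *brp* (-0.62) and *futsch* (-0.59), which encode an active zone and a microtubule-associated protein. Their summed level was 3396 to 4966 CPM in *Fsn* and 5542 to 5898 CPM in Control GD, and no neuron marker was at 0 in any library. Without the 2 libraries low in long genes, 4 of the 6 fell (*brp* -0.42, *futsch* -0.43), with sums of 4502 to 4966 CPM. Of 7 fat body markers, 5 rose, among them the yolk protein gene *Yp2* (1.09), and their sum was 51481 to 69705 CPM in *Fsn* against 26740 to 33041 CPM in Control GD, and 4 of 7 rose without those libraries. Of 5 muscle markers tested, 4 fell, and the sum of the 7 counted was 5425 to 5808 CPM against 6996 to 7637 CPM, with 4 fallen also without those libraries. Of 9 antenna markers, 5 fell (3 without those libraries), the largest change being that of *a10* (-5.34), while their sum overlapped between *Fsn* (837 to 1007 CPM) and Control GD (824 to 857 CPM). None of these sums was near 0, and the part of these tissues in the falls of the receptor genes was not tested.

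**Figure D2:**
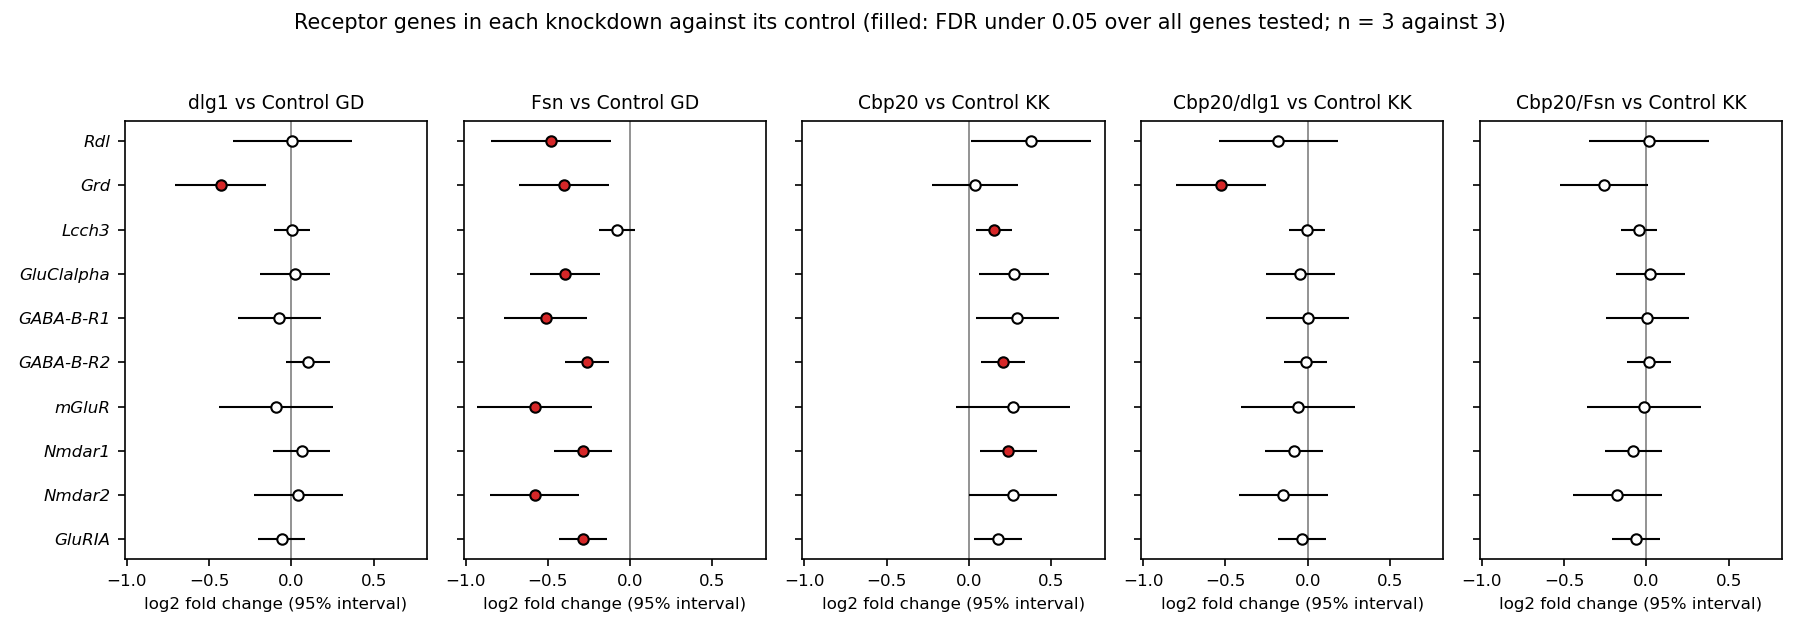
Log2 fold change of each receptor gene with its 95% interval (horizontal axis) in the 5 knockdown groups against their controls, 3 libraries against 3; filled points have an edgeR FDR under 0.05. Filled points number 9 in *Fsn*, all below 0, 3 in *Cbp20*, all above 0, and 1 each in *dlg1* and *Cbp20/dlg1*, both for *Grd*.

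Knockdown of *Cbp20* was compared with Control KK, and the receptor genes lay on the other side of the control. All 10 had a positive log2 fold change with a median of 0.25, against 0.01 over all genes, and 3 of them rose with an edgeR FDR under 0.05. Of all genes tested, 7.02% were called higher. *GABA-B-R2* levels were 205, 196 and 197 CPM in Control KK and 230.0, 234 and 227 CPM in *Cbp20* (0.21 ± 0.06, edgeR FDR = 0.0250). *Nmdar1* levels were 94.3, 90.2 and 91.8 CPM in Control KK and 113, 111 and 102 CPM in *Cbp20* (0.24 ± 0.08, edgeR FDR = 0.0459). *Lcch3* levels were 71.7, 75.0 and 77.8 CPM in Control KK and 81.9, 83.2 and 84.3 CPM in *Cbp20* (0.15 ± 0.05, edgeR FDR = 0.0430). In all 3 the groups were apart, and *Cbp20* flies had between 111% (*Lcch3*) and 118% (*Nmdar1*) of the control level.

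*Rdl* and *GluClalpha* gave larger estimates with wider errors, and *Grd* an estimate near 0. *Rdl* levels were 370.2, 416 and 389.6 CPM in Control KK and 535, 470.3 and 523 CPM in *Cbp20*, which did not pass the test (0.38 ± 0.17, edgeR FDR = 0.130). *GluClalpha* levels were 381, 433 and 415 CPM in Control KK and 509, 478 and 498 CPM in *Cbp20* (0.27 ± 0.10, edgeR FDR = 0.0603). *Grd* levels were 14.9, 14.5 and 15.6 CPM in Control KK and 18.6, 13.5 and 14.1 CPM in *Cbp20*, and it was the 1 member whose groups overlapped (0.04 ± 0.13, edgeR FDR = 0.869). The groups did not overlap for the other 9, with *Cbp20* higher, as for 22.9% of all genes. For *GABA-B-R1*, *mGluR*, *Nmdar2* and *GluRIA* the log2 fold changes were between 0.17 and 0.29, and none passed the test.

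These calls depended on which libraries set the common spread. With only *Cbp20* and Control KK in the model, 9 members rose, and 3583 of all genes were called in either direction, against 2285 with all groups. With both libraries low in long genes left out, 9 members (all but *Grd*) and 3588 of all genes were called, *Rdl* among them (0.37, edgeR FDR = 0.00329). The log2 fold change of *Rdl* was nearly the same as with all libraries, since neither library belongs to this comparison, and its SE was 0.09 in place of 0.17. When the trend with exon length was removed from every library, 8 members rose, with a median of 0.15. By contrast, no member was called when *Cbp20* replicate 1, *Cbp20* replicate 2 or Control KK replicate 2 was left out, and with 1 replicate left out at a time the median stayed between 0.23 and 0.26. Neuron markers summed to 5958 to 6316 CPM in *Cbp20* and 5129 to 5337 CPM in Control KK, and 1 of 6, *elav*, passed the test (0.38). Fat body markers summed to 19057 to 24979 CPM in *Cbp20* and 45539 to 54809 CPM in Control KK, and 6 of 7 fell, *Yp2* (-1.44) among them. Of 5 muscle markers tested, 4 rose (sum of the 7 counted 7510 to 9562 CPM against 6207 to 7047 CPM), and of 9 antenna markers 6 rose, *a10* (5.15) the most, while their sums overlapped (583 to 731 CPM against 602 to 660.5 CPM). The part of these tissues in the rises was not tested.

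**Figure D3:**
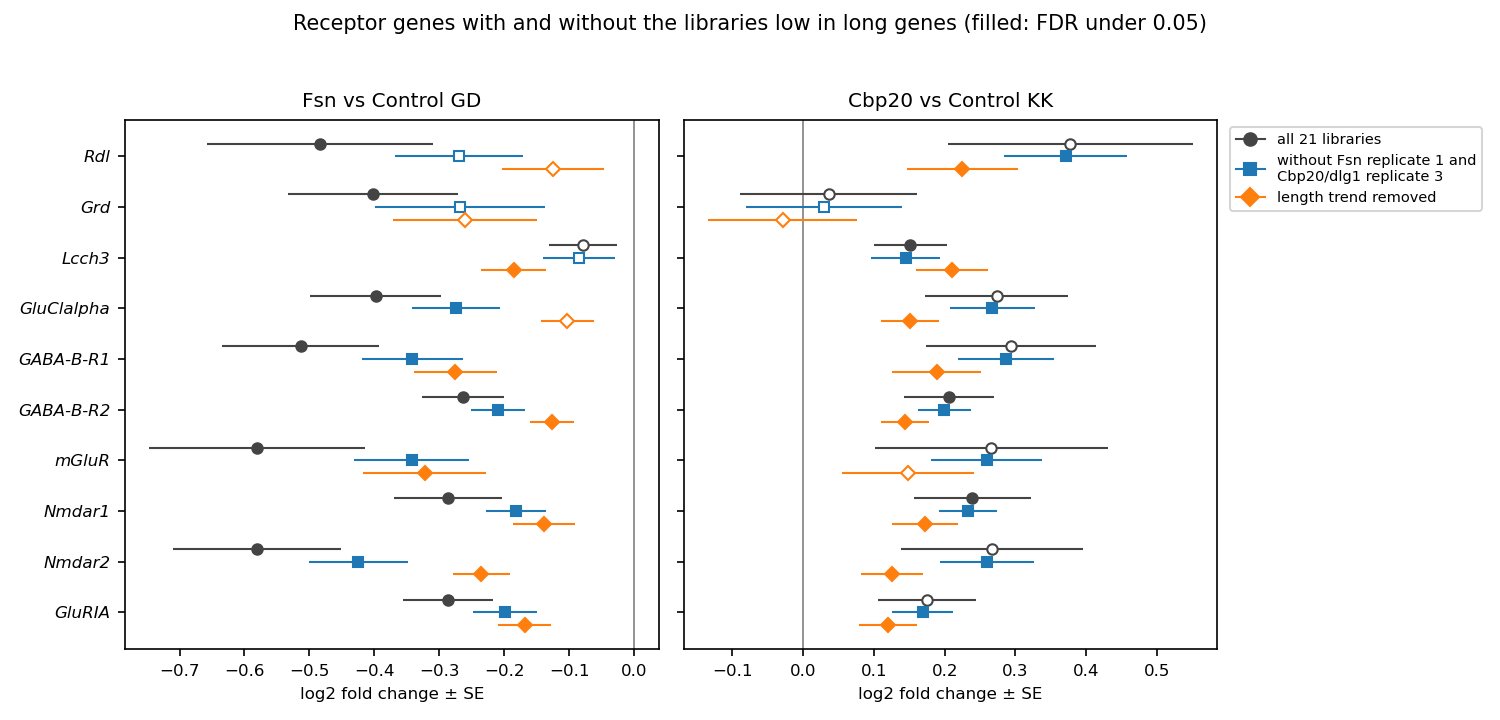
Log2 fold change ± SE (horizontal axis) of the 10 receptor genes in *Fsn* against Control GD and in *Cbp20* against Control KK from all 21 libraries, without the 2 libraries low in long genes, and after removal of the length trend; filled points have an edgeR FDR under 0.05. All points lie below 0 in *Fsn*, and in *Cbp20* 1 point, *Grd* with the length trend removed, lies below 0.

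Knockdown of *dlg1* left the level of most receptor genes close to that of Control GD. Of the 10, only *Grd* was called, and it was lower, where 5.02% of all genes were called lower. *Grd* levels were 9.33, 10.1 and 8.98 CPM in *dlg1*, against 12.8, 13.3 and 12.1 CPM in Control GD, without overlap. The log2 fold change was -0.43 ± 0.13 (edgeR FDR = 0.0477), a reduction to 74.2% of the control. The FDR is close to the threshold, and with 1 of the 6 libraries left out at a time it ranged from 0.0718 to 0.162. The log2 fold changes of the other 9 were between -0.09 and 0.10. Their 95% intervals reached at most from -0.44 (*mGluR*) to 0.37 (*Rdl*), and were narrower for others, such as *Lcch3* (-0.11 to 0.11). Changes of a size inside a member's own interval remain possible. *GABA-B-R2* was higher in each *dlg1* library (223, 227 and 235 CPM) than in each control library (213, 212 and 214 CPM), a difference that did not pass the test (0.10 ± 0.06, edgeR FDR = 0.435). It and *Nmdar1* (102, 97.9 and 102 CPM against 97.2, 96.0 and 95.7 CPM) lay above the control without overlap, as did 15.9% of all genes, and *Grd* lay below, as did 15.2%. *CG5577* did not pass the test in *dlg1* flies (-0.02). Glia and hemocyte markers fell in the same flies (2 of 5 and 4 of 5, with values given beside *Gat* further on), and their part in the fall of *Grd* was not tested.

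*Grd* was lower in the pairwise knockdown that includes *dlg1* as well. In *Cbp20/dlg1* flies its levels were 10.7, 10.5 and 9.92 CPM, below the 14.9, 14.5 and 15.6 CPM of Control KK, and the log2 fold change was -0.53 ± 0.13 (edgeR FDR = 0.00987). Of all genes tested, 5.76% were called lower in this comparison, and 18.6% lay below the control without overlap, as among the members *Grd* did. With 1 of the 6 libraries left out at a time, *Grd* stayed below an FDR of 0.05, at 0.0457 or less, with log2 fold changes between -0.55 and -0.50. Against the control of the other background it did not pass (-0.29, edgeR FDR = 0.121). The *dlg1* and *Cbp20/dlg1* comparisons have no library in common, but both rest on the same *dlg1* RNAi line. The other 9 receptors had log2 fold changes between -0.18 and 0.00 in *Cbp20/dlg1*, none of which passed. *CG5577* did not pass the test there either (-0.05). Here 4 of 5 hemocyte markers rose and no glia marker was called. Without the 2 libraries low in long genes, 4 hemocyte markers rose as well and 1 glia marker fell, *alrm* (-0.30, edgeR FDR = 0.0348).

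In *Cbp20/Fsn* flies no receptor gene was called against Control KK, and by unadjusted p none was under 0.05 either, where 31.0% of all genes were. edgeR called 8.63% of all genes higher and 8.45% lower, and DESeq2 also called 0 members. The log2 fold changes of the members ranged from -0.26 (*Grd*) to 0.02, with 95% intervals that reached from -0.52 to 0.38. *Nmdar2* levels were 93.8, 114 and 106 CPM in *Cbp20/Fsn* and 116, 121 and 116 CPM in Control KK, each pairwise library below each control library (-0.18 ± 0.13, edgeR FDR = 0.38). *Grd* was the other member without overlap, and 21.6% of all genes lay below the control in this way. *Rdl* levels were 357, 423 and 410.2 CPM, overlapping with Control KK (0.02 ± 0.17, edgeR FDR = 0.961). Markers differed in this comparison. Of 13 photoreceptor markers, 9 fell and 1 rose, and 5 of 7 fat body markers fell. Of 6 neuron markers 1 fell, *futsch* (-0.43). Above Control KK were 3 of 5 hemocyte, 4 of 9 antenna and 1 of 5 muscle markers tested, and no glia marker was called. The part of these tissues in the levels of the receptor genes was not tested.

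Both pairwise knockdowns were set against *Cbp20* alone, to ask what the added RNAi line altered. That line brings a further RNAi construct and GD background beside the KK line, and no control here carries this mix. *Cbp20* itself was at 5.91 CPM in *Cbp20/dlg1* and 6.18 CPM in *Cbp20/Fsn*, against 5.30 CPM in *Cbp20* flies. Libraries did not overlap, but neither difference passed the test (0.15 and 0.22). The part of background and of *Cbp20* level was not tested. All 10 receptor genes were lower in both pairs than in *Cbp20*, with no overlap between libraries, as were 22.2% of all genes for *Cbp20/dlg1* and 21.5% for *Cbp20/Fsn*. The comparisons share the *Cbp20* libraries, which also hold the highest group mean of each member. In *Cbp20/dlg1*, 8 of 10 fell (all but *GABA-B-R1* and *mGluR*), with 13.6% of all genes called lower and a median over the members of -0.32. *Rdl* fell from 535, 470.3 and 523 CPM to 392, 387 and 261 CPM (-0.56 ± 0.17, edgeR FDR = 0.0200), and *Grd* from 18.6, 13.5 and 14.1 CPM to 10.7, 10.5 and 9.92 CPM (-0.56 ± 0.13, edgeR FDR = 0.00277). Without *Cbp20/dlg1* replicate 3, which is low in long genes, 2 of the 10 were called. With 1 of the 6 libraries left out at a time, between 2189 and 3364 of all genes were called. With both libraries low in long genes left out, 9 members were called, and the count of all genes stayed within 1.5 times that with all libraries. Markers moved with these falls. Of 6 neuron markers 2 fell, *brp* (-0.57) and *futsch* (-0.56), 3 of 5 muscle markers fell, 5 of 7 fat body markers rose, *Yp1* among them, and 4 of 5 hemocyte markers rose. Neuron markers summed to 4310 to 5463 CPM in the pair against 5958 to 6316 CPM in *Cbp20*, and fat body markers to 37238 to 48690 CPM against 19057 to 24979 CPM. Without the 2 libraries the counts of markers called were 2, 3, 4 and 3 in the same order, and the part of these tissues in the falls was not tested.

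In *Cbp20/Fsn*, 5 of 10 fell against *Cbp20*, where 11.8% of all genes were called lower. They were *Lcch3*, *GABA-B-R2*, *Nmdar1*, *Nmdar2* and *GluRIA*. *Nmdar2* fell from 144, 138 and 144 CPM to 93.8, 114 and 106 CPM (-0.44 ± 0.13, edgeR FDR = 0.0150), and *Nmdar1* from 113, 111 and 102 CPM to 85.8, 91.3 and 84.5 CPM (-0.32 ± 0.08, edgeR FDR = 0.00818). Both NMDA receptor subunits were thus lower in this pair than in *Cbp20* flies, whereas against Control KK neither passed the test. With only these groups in the model 9 members were called, and without the 2 libraries low in long genes 10 were. In both fits the count of all genes called stayed within 1.5 times that with all libraries. With 1 of the 6 libraries left out at a time between 2 and 5 members were called, and 1982 to 3147 of all genes. Of 6 neuron markers 3 fell, *futsch* (-0.59), *brp* (-0.57) and *nSyb* (-0.22), 4 of 7 fat body markers rose, *Yp1* (0.89) among them, and 3 of 5 hemocyte markers rose. Neuron markers summed to 4591 to 5267 CPM and fat body markers to 33996 to 38298 CPM in this pair, and the part of these markers in the falls was not tested.

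To ask whether pairwise effects departed from additivity on the log2 scale, the effect of each pair was compared with the 2 individual effects added up. No control carries the mix of KK and GD lines of the pairs, and the part of background in a departure was not tested. For *Cbp20/dlg1*, all 10 members were below the sum and 2 passed the test, where 5.63% of all genes were called lower. *GABA-B-R2* was 0.10 above Control GD in *dlg1*, 0.21 above Control KK in *Cbp20* and -0.01 in the pair (208, 208 and 178 CPM), which is -0.32 ± 0.09 from the sum (edgeR FDR = 0.0179). *Nmdar1* was 0.06 above Control GD in *dlg1*, 0.24 above Control KK in *Cbp20* and -0.08 in the pair (92.1, 91.8 and 76.7 CPM), which is -0.39 ± 0.12 from the sum (edgeR FDR = 0.0286). Without *Cbp20/dlg1* replicate 3 the differences were -0.25 for *GABA-B-R2* (edgeR FDR = 0.0482) and -0.30 for *Nmdar1* (edgeR FDR = 0.0827). With both libraries low in long genes left out they were -0.24 and -0.30, and both passed. Markers departed from the sum as well. All 5 hemocyte markers, 5 of 7 fat body markers, *Yp1* among them, and 3 of 5 glia markers were above it, and 1 of 6 neuron markers, *futsch* (-0.68), was below it, with 2 of 6 below it without the 2 libraries and the other 3 counts as before. Their part in the departures of the receptor genes was not tested. For *Cbp20/Fsn*, no member differed from the sum (median 0.12), where edgeR called 3.90% of all genes higher and 2.81% lower. No member had an unadjusted p under 0.05, where 19.7% of all genes did, and DESeq2 called 0 members. The 95% intervals of these differences reached from -0.39 to 0.79, so the absence of a call does not show that the effects added.

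Control KK was compared with Control GD, since the groups differ in background as well as in the targeted gene. No receptor gene was called, and none had an unadjusted p under 0.05, where 32.4% of all genes did and edgeR called 11.8% of all genes higher and 9.12% lower. DESeq2 called 0 members as well, but 6 members were called with only the controls in the model and 2 without the 2 libraries low in long genes, which belong to neither control. The log2 fold changes ran from -0.21 (*GABA-B-R1* and *mGluR*) to 0.23 (*Grd*). In 7 members the KK libraries were all below the GD libraries, as in 23.9% of all genes, and in *Grd* they were all above, as in 24.9%. Set against Control KK in place of Control GD, 2 members were lower in *Fsn*, and against Control GD in place of Control KK none was higher in *Cbp20*. The counts of all genes called in these 2 comparisons stayed within 1.5 times those against the control of the same background. The choice of control thus changed both counts of members.

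**Figure D4:**
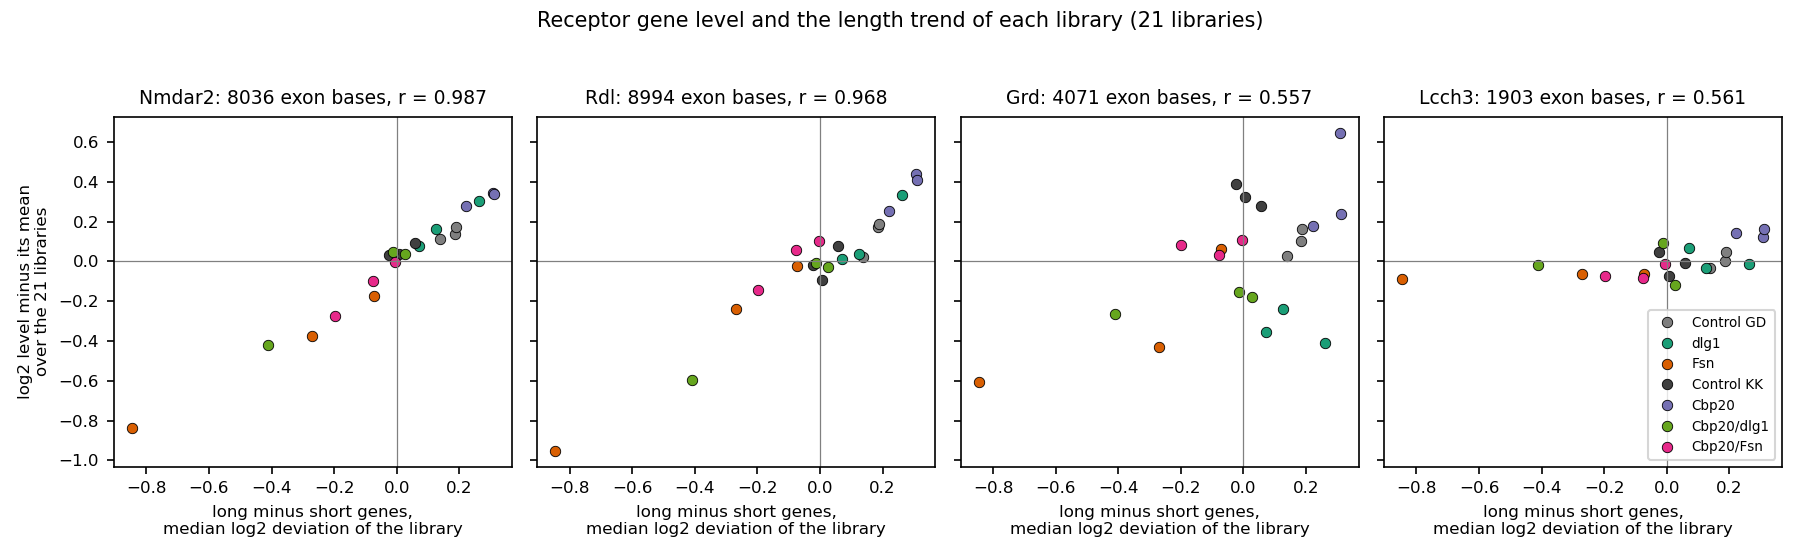
Log2 level of *Nmdar2*, *Rdl*, *Grd* and *Lcch3* minus its mean over the 21 libraries (vertical axis) against the length trend of each library, the median log2 deviation of long genes minus that of short genes (horizontal axis). *Nmdar2* and *Rdl* lie along a line through all groups (r = 0.987 and 0.968), and *Grd* and *Lcch3* scatter (r = 0.557 and 0.561).

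The receptor genes moved with the representation of long transcripts. Over the 21 libraries, Pearson's r between a member's log2 level and the length trend of the library was 0.919 to 0.987 for 8 members, and 0.557 for *Grd* and 0.561 for *Lcch3*. The points share the libraries and their scaling, so these values are a description. Exons of the 8 span 3810 bases (*GluRIA*) to 8994 bases (*Rdl*), those of *Grd* 4071 bases and those of *Lcch3* 1903 bases. Over the 10 members, the log2 fold change in *Fsn* was related to the log of exon length with r = -0.889, and that in *Cbp20* with r = 0.703. In *Fsn*, genes with over 5000 exon bases had a median log2 fold change of -0.33, and the 5 members among them -0.51. Genes with 1500 to 5000 exon bases had a median of 0.02, and the 5 members among these -0.29. In *Cbp20* the medians were 0.14 for long genes and 0.27 for the members among them, and 0.01 and 0.17 for those of 1500 to 5000 bases. The part of length in the differences was not tested beyond the fits with the trend removed.

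Members also varied together. Over the 45 pairs of members, r of the log2 levels across the 21 libraries ranged from 0.355 to 0.982 with a median of 0.891, and that of the deviations from the group means had a median of 0.827. *GABA-B-R1* and *mGluR*, both G protein-coupled receptors, were the pair at 0.982. Of 8141 genes searched (mean level 5 CPM or more), the gene most like *Rdl* was *sm* (r = 0.984), that most like *GluClalpha* was *chinmo* (0.989), that most like *Nmdar2* was *Cngl* (0.997) and that most like *Grd* was *sano* (0.895). Closest to the others were *Pka-C1* for *GABA-B-R1* (0.984), *Tusp* for *GABA-B-R2* (0.977), *CG15431* for *Nmdar1* (0.973), *ChT* for *GluRIA* (0.976) and *CG4467* for *mGluR* (0.988). *Lcch3* was closest to *Csp* (0.810) and to *VGAT* (0.806), the transporter that loads GABA into vesicles. The genes most like the longer receptors were themselves long, such as *sm* (16635 exon bases) and *Cngl* (14670), against 3081 for *Csp* and 2700 for *VGAT*.

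**Figure D5:**
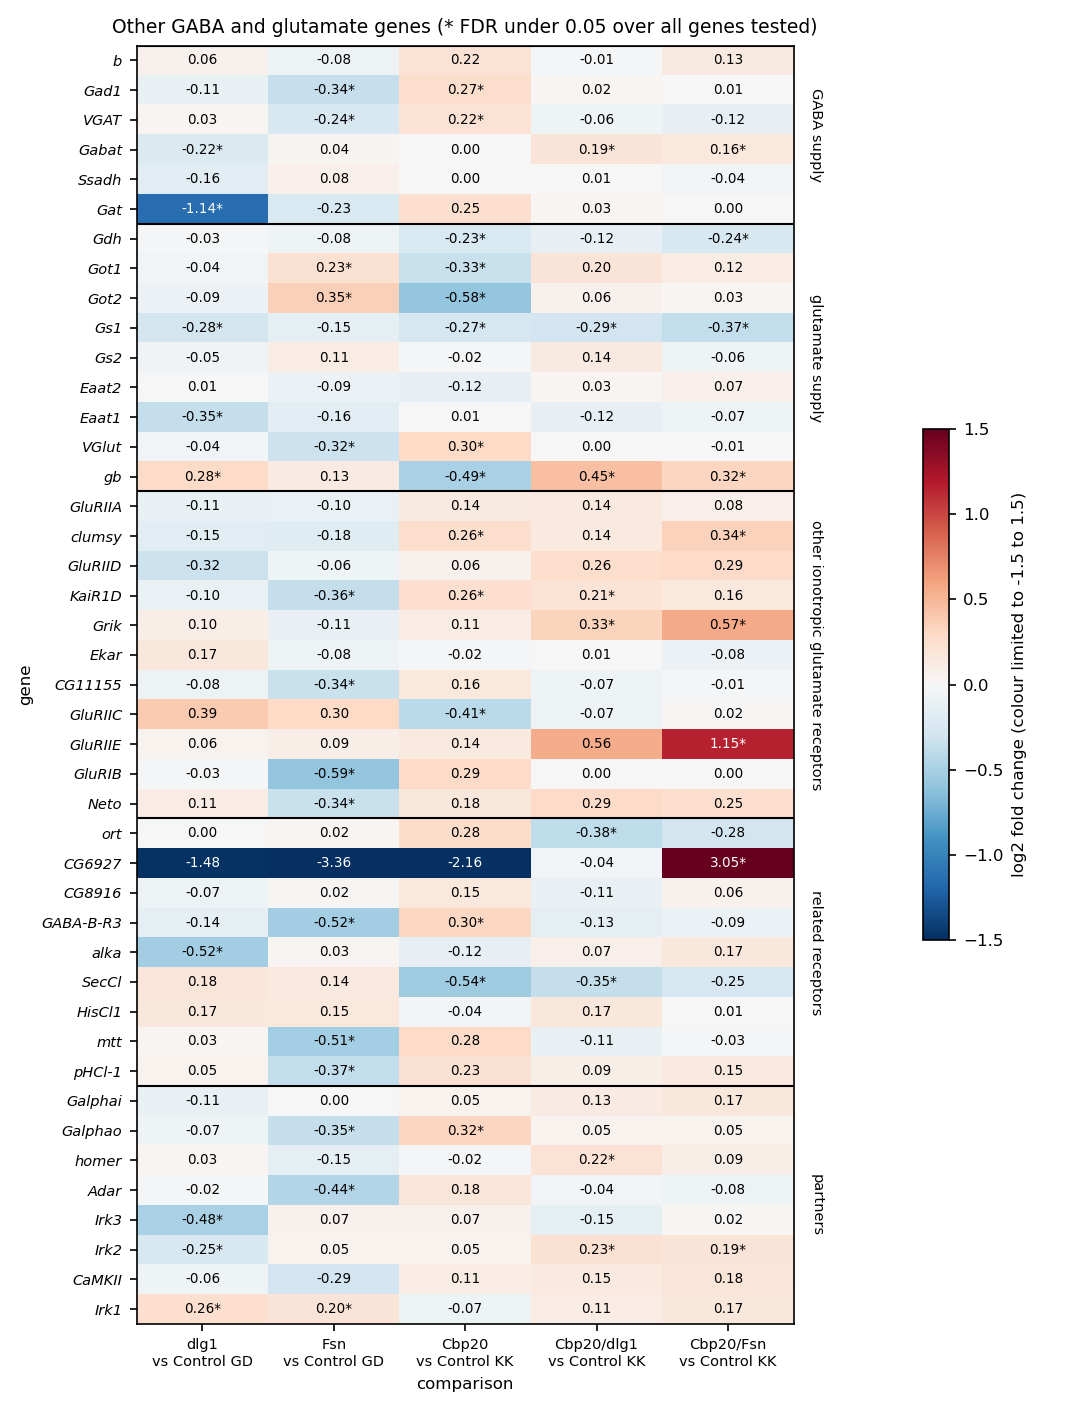
Log2 fold change (colour and number) of 43 further genes of GABA and glutamate signalling (vertical axis) in the 5 knockdown groups against their controls (horizontal axis); an asterisk marks an edgeR FDR under 0.05. Among changes marked, those of *Gat* in *dlg1* (-1.14), *GluRIIE* (1.15) and *CG6927* (3.05) in *Cbp20/Fsn* exceed 1 in size, and *CG6927* is below 1 CPM in most libraries.

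Genes that supply GABA differed between the knockdowns. *Gat*, the glial transporter that clears GABA, had 146, 149 and 138 CPM in Control GD and 68.6, 66.5 and 60.7 CPM in *dlg1*. The groups were far apart, and the log2 fold change was -1.14 ± 0.11 (edgeR FDR = 5.74e-07). The glial glutamate transporter *Eaat1* fell as well, from 526, 508 and 516 CPM to 411, 391 and 412 CPM (-0.35 ± 0.07, edgeR FDR = 0.00172), and so did *Gabat*, the enzyme that breaks GABA down (-0.22). Of 5 glia markers, 2 fell in *dlg1*, *alrm* (-1.19), which marks astrocytes, and *nrv2* (-0.43), and the sum of the 5 was 524 to 542 CPM against 674 to 698 CPM in Control GD. Of 5 hemocyte markers, 4 fell, with a sum of 479 to 496 CPM against 862 to 931 CPM. None of these markers was at 0 in any library, and their part was not tested. In *Cbp20/dlg1* neither *Gat* (0.03) nor *Eaat1* (-0.12) was called.

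*Gad1* and *VGAT*, whose products make GABA and load it, were called in *Fsn* and in *Cbp20*. A decarboxylase gene kept on the same list, *b*, was not (-0.08 and 0.22). *Gad1*, the GABA-synthesizing enzyme, fell in *Fsn* (-0.34, edgeR FDR = 0.00131) and rose in *Cbp20* (0.27, edgeR FDR = 0.00856). *VGAT* fell in *Fsn* (-0.24, edgeR FDR = 0.00304) and rose in *Cbp20* (0.22, edgeR FDR = 0.00770), and *VGlut*, which loads glutamate, fell in *Fsn* (-0.32, edgeR FDR = 0.00619) and rose in *Cbp20* (0.30, edgeR FDR = 0.0122). Without the 2 libraries low in long genes, the values in *Fsn* were -0.26 for *Gad1*, -0.21 for *VGAT* and -0.22 for *VGlut*, and each passed the test. The counts of these lists are to be read against the share of all genes called, which was 4.24% higher and 5.02% lower in *dlg1*, 20.3% and 17.9% in *Fsn*, 7.02% and 14.6% in *Cbp20*, 7.37% and 5.76% in *Cbp20/dlg1*, and 8.63% and 8.45% in *Cbp20/Fsn*. Nothing is read from a list with a single gene called. Over the 6 genes listed for GABA supply, *b* among them, 2 fell in *dlg1*, 2 fell in *Fsn* and 2 rose in *Cbp20*. In each pairwise knockdown 1, *Gabat*, rose (0.19 and 0.16). Over the 9 genes of glutamate supply and metabolism, 1 rose and 2 fell in *dlg1*, 2 rose and 1 fell in *Fsn* (2 and 2 without the 2 libraries), 1 rose and 5 fell in *Cbp20*, 1 rose and 1 fell in *Cbp20/dlg1*, and 1 rose and 2 fell in *Cbp20/Fsn*. The falls in *Cbp20* were of 4 metabolic enzymes, among them the transaminase *Got2* (-0.58), and of *gb* (-0.49), which encodes a glial amino acid exchanger and rose in *dlg1* (0.28) and in both pairs (0.45 and 0.32). *Gs1*, a glutamine synthetase, fell in both pairwise knockdowns (-0.29 and -0.37).

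Other receptors of the same families were tested too. Of 11 further genes of ionotropic glutamate receptors and their auxiliary subunit *Neto*, 4 fell in *Fsn*, among them the AMPA-type *GluRIB* (-0.59) and the kainate-type *KaiR1D* (-0.36), and without the 2 libraries 3 of 12 tested fell, *GluRIB* at -0.44 and *KaiR1D* at -0.34. No such gene was called in *dlg1*, where *GluRIIC* had the largest estimate (0.39). In *Cbp20*, 2 rose and 1 fell (*clumsy*, 0.26, *KaiR1D*, 0.26, and *GluRIIC*, -0.41), in *Cbp20/dlg1* 2 rose (3 without the 2 libraries), and in *Cbp20/Fsn* 3 rose. The kainate-type *Grik* rose in both pairs (0.33 and 0.57). *GluRIIE*, a subunit of the receptor at the larval muscle synapse, had 2.97, 2.65 and 3.39 CPM in *Cbp20/Fsn* and 1.20, 1.55 and 1.28 CPM in Control KK (1.15 ± 0.19, edgeR FDR = 0.000260). It was lower in Control KK than in Control GD (-1.02).

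Of 9 related chloride channel subunits and metabotropic receptors tested, 1 fell in *dlg1*, *alka* (-0.52), which encodes a subunit of the same channel family. In *Fsn* 3 fell, among them the metabotropic receptor genes *GABA-B-R3* (-0.52) and *mtt* (-0.51), which were -0.41 and -0.38 without the 2 libraries, and in *Cbp20* 1 rose and 1 fell, *GABA-B-R3* (0.30) and *SecCl* (-0.54). In *Cbp20/dlg1* 2 fell, among them the histamine-gated channel of vision *ort* (-0.38), which did not pass without the 2 libraries (-0.36), and in *Cbp20/Fsn* 1 rose, *CG6927* (3.05). Its libraries there held 1.04, 0.0442 and 5.69 CPM against 0.433, 0.137 and 0.234 CPM in Control KK, so that the groups overlapped and replicate 3 set the estimate. Of 8 partners of the receptors, 1 rose and 2 fell in *dlg1*, all potassium channels of the inward rectifier family, *Irk1* (0.26), *Irk3* (-0.48) and *Irk2* (-0.25). In *Fsn* 1 rose, *Irk1* (0.20), and 2 fell, *Adar* (-0.44), the enzyme that edits receptor transcripts, and *Galphao* (-0.35), the G protein subunit, which rose in *Cbp20* (0.32). Without the 2 libraries they were -0.28 and -0.24 and passed the test. In *Cbp20/dlg1* 2 rose, *homer* (0.22), a scaffold that binds metabotropic receptors, and *Irk2* (0.23), and in *Cbp20/Fsn* 1 rose, *Irk2* (0.19).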

How the data were processed

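Reads from 21 libraries (7 groups, 3 biological replicates each) were processed by the authors, who trimmed them with Trimmomatic 0.36, aligned them with TopHat2 2.1.1 to the fly reference genome, and deposited raw HTSeq 0.6.1 counts per gene without normalization, 1 column per sequencing batch. The libraries were made with a strand-specific kit, and the strand setting of the counting is not given in the sources used here. Of 29 genes that lie wholly within exons of an abundant gene on the opposite strand, 20 had counts, against 2 of 39 on the same strand.

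Batches were summed (3 for 17 libraries, 2 for 4), HTSeq summary lines were removed (10.2% to 14.6% of reads without a feature and 2.09% to 2.88% ambiguous), and symbols were matched by identifier for 17253 of 17559 genes. At these depths 3 counts are 0.104 to 0.169 CPM, which covers counting error only. In R 4.3.3, edgeR 4.0.16 (filterByExpr, TMM, quasi-likelihood test with legacy estimation, 1 coefficient per group over all 21 libraries, Benjamini-Hochberg correction) was used, since the study used a generalized linear model of edgeR. CPM values are TMM-scaled. RPKM used the union of exons of BDGP6.54.

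The members and lists were chosen with earlier results of these data known. Of the other lists, at most 2 genes per comparison and list were named by rule (largest change with FDR under 0.05 and no overlap), as were the genes most like a member over all libraries, and other genes named, such as *CG6927*, *Irk1* or *GluRIIC*, were chosen after their values were seen. Alternatives were RLE normalization, DESeq2 1.42.0, edgeR 4 estimation, no low-count filter, at least 10 counts in every library, a replicate block, the first batch only, the other control, only the groups compared, an FDR of 0.01, and each replicate left out. Removal of a lowess trend (span 0.5) of log2 deviation on log exon length from each library, and the fit without 2 libraries, were added after seeing the data. Procedures were tested on simulated data. Figures used Python 3.11.15 and matplotlib 3.10.9.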

Additional observations from a re-analysis of the deposited data

Results flagged for a closer look

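The effect of *Cbp20/dlg1* knockdown on *GABA-B-R2* differed from the added effects of the individual knockdowns by -0.32 on the log2 scale (edgeR FDR = 0.0179), a difference between 2 contrasts that was itself tested. *GABA-B-R2* was higher than the control in every library of both individual knockdowns and overlapped with Control KK in the pair. *Nmdar1* differed from the added effects by -0.39 (edgeR FDR = 0.0286), likewise by a test of the difference. In the same contrast 5 of 5 hemocyte, 5 of 7 fat body and 3 of 5 glia markers were above the sum and 1 of 6 neuron markers below it. With 1 library left out at a time, *GABA-B-R2* passed in 12 of 12 fits and *Nmdar1* failed in 7 of 12.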

How the results depend on the processing

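Counts are of members, then of all genes, called at an FDR under 0.05 unless stated. With all libraries edgeR called 1 and 978 in *dlg1*, 9 and 4035 in *Fsn*, 3 and 2285 in *Cbp20*, 1 and 1386 in *Cbp20/dlg1*, 0 and 1803 in *Cbp20/Fsn*, and 0 and 2207 between the controls. Against *Cbp20* it called 8 and 3402 in *Cbp20/dlg1* and 5 and 3087 in *Cbp20/Fsn*, and against the added effects 2 and 1910 and 0 and 709. No called member changed direction under the alternatives run. Counts not given below stayed within 1.5 times.

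At an FDR of 0.01 the counts were 0 and 522 in *dlg1*, 5 and 2086 in *Fsn*, 0 and 1421 in *Cbp20*, 747 genes in *Cbp20/dlg1*, 883 in *Cbp20/Fsn* and 1294 between controls. Against *Cbp20* they were 2 and 2052 for *Cbp20/dlg1* and 2 and 1632 for *Cbp20/Fsn*, and against the added effects 0 and 1067, and 302 genes. The call of *Grd* in *dlg1* was lost (0 members) with RLE normalization, with edgeR 4 estimation and with the first batch only (535 genes). The first batch gave 2202 genes in *Fsn*, 819 in *Cbp20/dlg1*, 1021 in *Cbp20/Fsn*, 1218 between controls, 2 members for *Cbp20/Fsn* against *Cbp20*, and 374 genes against the added effects. With the control of the other background, the counts were 2 and 2570 in *dlg1*, 2 members in *Fsn*, 0 in *Cbp20*, 1 in *Cbp20/Fsn* and 0 in *Cbp20/dlg1*. With only the groups compared, the counts were 1 and 1568 in *Fsn*, 9 and 3583 in *Cbp20*, 1 member in *Cbp20/Fsn*, 6 and 3819 between controls, 9 members for *Cbp20/Fsn* against *Cbp20* and 5 for *Cbp20/dlg1* against the added effects. Without the 2 libraries low in long genes they were 9 and 3588 in *Cbp20*, 1 and 2983 in *Cbp20/Fsn*, 2 members between controls, 10 for *Cbp20/Fsn* against *Cbp20* and 4 for *Cbp20/dlg1* against the added effects. With the length trend removed they were 2 members in *dlg1*, 2577 genes in *Fsn*, 8 members in *Cbp20*, 2094 genes in *Cbp20/dlg1*, 4 members for *Cbp20/dlg1* against the added effects and 1094 genes for *Cbp20/Fsn*. Apart from fewer libraries or a stricter threshold, the cause of these shifts was not tested.

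With the replicate number as a block, 0 members were called in *dlg1* and 1 in *Cbp20*. The labels do not say whether same-numbered replicates of different groups were handled together. Deviations of same-numbered libraries from their group means were correlated with a mean r of -0.015 over 63 pairs (-0.32 to 0.34, 9 of them over 0.1). A mean near 0 with this spread does not decide that question.

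With 1 replicate left out at a time, the counts ranged from 0 to 0 members and 638 to 739 genes in *dlg1*, 6 to 9 and 2202 to 4823 in *Fsn*, 0 to 2 and 1668 to 2096 in *Cbp20*, 1 to 1 and 875 to 1366 in *Cbp20/dlg1*, 0 to 0 and 1031 to 1715 in *Cbp20/Fsn*, and 0 to 0 and 1556 to 1700 between controls. Against *Cbp20* they ranged from 2 to 8 and 2189 to 3364 for *Cbp20/dlg1* and 2 to 5 and 1982 to 3147 for *Cbp20/Fsn*, and against the added effects from 1 to 3 and 1443 to 1958, and 0 to 0 and 516 to 924. Depth limits *Grd* most, at 7.82 to 18.6 CPM. With 3 libraries per group, where no call was made, changes of a size inside a member's own interval remain possible.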
